A study of Homo sapiens and Mus musculus with 8 samples.

Results

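This account covers 9 genes that move Ca2+ between the cytosol, its stores, the mitochondria and the outside of the cell, chosen by name: Itpr1, Itpr2, Itpr3, Atp2a2, Atp2b1, Atp2b4, Atp2c1, Mcu and Micu2. Rows were taken where the gene symbol equalled one of these names, ignoring letter case. Of the 9 genes, 8 had a row in each of the 3 tables of the mouse line, which together hold 15966 symbols. Micu2 was not analysed here. Neither human table held any of the 9 genes, so the results below are those of mouse cells.

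RNA-seq comparisons were made on 8 samples of 3 melanoma lines, with 1 sample per group: mouse B16N and human WM983 and UACC257. The B16N samples carrying the results were cells exposed to UV for 2 weeks, cells exposed to UV for 5 weeks, a clone overexpressing Orai1, and untreated wild-type cells labelled day 0. Orai1 forms the pore through which Ca2+ enters a cell once its stores are emptied. The clone came from cells given CFP-tagged wild-type Orai1, selected with G418, sorted and grown up singly, and it is also labelled day 0. It is 1 clone, so effects of Orai1, of selection and of clonal descent cannot be told apart, and time in culture and length of UV exposure cannot be told apart either. WM983 and UACC257 were each compared after UV with their own untreated cells; their UV samples are labelled week 2, while their titles carry the code UV3.

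The files hold the authors' comparisons of each treated sample with its control, not counts or levels, so depth is unknown and no change had a replicate check here. Changes are log2 ratios of treated over control, and each standard error (SE) was recovered from the change and its deposited statistic. The direction was read from the tables themselves: deposited log2 values were negative for all 1357 genes listed in 1 mouse table alone, so the mouse signs were turned, and every direction below rests on that reading. An adjusted p is a Benjamini-Hochberg value over all genes of a table, computed here from the deposited p-values, and a gene is said to have risen or fallen where it is under 0.05. Such a p compares libraries and not conditions. In bulk RNA, fewer cells of a type and less RNA per cell cannot be told apart. All 7 melanocyte markers had a row in each mouse table, and 6 had values of their own. Of these 6, 4 rose at 2 weeks and 5 at 5 weeks, and in the clone 2 rose and 1, Dct, fell. The seventh, Sox10, shares its values with another symbol; its row had 0.02 at 2 weeks (SE 0.10), -0.60 at 5 weeks (SE 0.15, adjusted p = 0.00212) and -0.24 in the clone (SE 0.11, adjusted p = 0.111) from the authors' deposited tables. Of the markers of immune, endothelial, epithelial and fibroblast cells, all but the myeloid marker Lyz2 had no row or shared their values with other symbols. Lyz2 was at 0.38 at 2 weeks (SE 0.94) and was higher after 5 weeks of UV (3.47, SE 0.70) and in the clone (2.78, SE 0.64) from the authors' deposited tables; its part in the results below was not tested. Orai1 itself had no row under that symbol in any mouse table and was not analysed here, so the overexpression in the clone has no check in these values.

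Cells keep cytosolic Ca2+ low and hold large stores in the endoplasmic reticulum. Inositol trisphosphate (IP3), made by phospholipase C, opens IP3 receptors in the store membrane, and loss of store Ca2+ then opens Orai channels. Pumps return the ion to the endoplasmic reticulum (SERCA), to the Golgi (SPCA) or out of the cell (PMCA). Mitochondria take it up through the uniporter Mcu, which Micu proteins gate. In melanoma, store-operated entry has been linked to proliferation, pigment production and invasion.

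Among these genes the IP3 receptor Itpr2 had the largest changes, and they ran in opposite directions. It was higher in B16N after 5 weeks of UV and lower in the Orai1 clone, and its change at 2 weeks of UV was near 0. Mcu fell at 2 weeks of UV, and the pump gene Atp2c1 and the row named Atp2a2 fell in the clone. No change of Itpr1, Itpr3, Atp2b1 or Atp2b4 passed the test in any comparison. At 2 weeks 1 of 8 genes passed, where 7.67% of all genes did. At 5 weeks 1 of 8 passed, where 4.78% of all genes did. In the clone 3 of 8 passed, where 22% of all genes did. With 8 genes a single call is 12.5% of them, so these counts are not read as a property of the group. With a fold minimum of 2 beside the test, 0 of 8 passed at 2 weeks, where 0.348% of all genes did, and Itpr2 alone passed at 5 weeks and in the clone, where 1.81% and 6.79% did. The median log2 change of the 8 was -0.20 at 2 weeks, 0.29 at 5 weeks and -0.20 in the clone, against 0.03, 0.02 and 0.07 for all genes of each table.

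**Figure D1:**
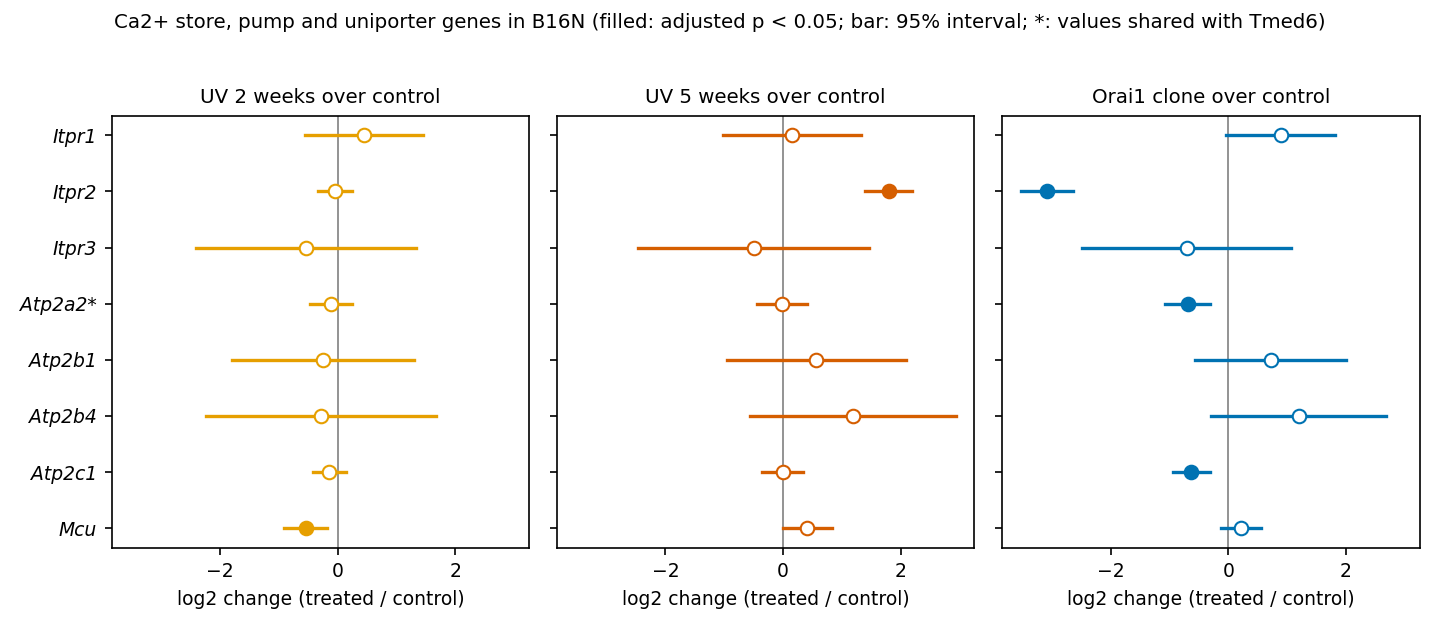
Log2 change (treated over control, horizontal axis) of the 8 measured genes in B16N after 2 weeks of UV, after 5 weeks of UV and in the Orai1 clone. Points are the authors' deposited values with the sign turned, bars are 95% normal intervals, and filled points have an adjusted p under 0.05. Itpr2 stands at 1.80 after 5 weeks, where the intervals of Atp2b1 and Atp2b4 also reach that value, and at -3.08 in the clone, below the intervals of the other genes.

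Itpr2 encodes the IP3 receptor with the highest affinity for IP3. After 5 weeks of UV it rose by a log2 change of 1.80 from the authors' deposited table (SE 0.20, adjusted p = 1.48e-15), which is 3.48-fold with a 95% interval of 2.63 to 4.59. In the Orai1 clone the change was -3.08 from the authors' deposited table (SE 0.23, adjusted p = 1.43e-39), so its level was 0.118 of that in control cells, with an interval of 0.0869 to 0.161. At 2 weeks of UV it stood at -0.05 from the authors' deposited table (SE 0.15, adjusted p = 0.959), with an interval of 0.788- to 1.18-fold. A change of the size seen at 5 weeks lies far outside that interval. Among all genes of the tables, 12 of 14821 had a smaller p than Itpr2 at 5 weeks and 38 of 15041 had one in the clone. Among genes with an SE of at most 0.5, 19 of 8540 rose more at 5 weeks and 17 of 9116 fell further in the clone.

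The other IP3 receptor genes were measured less precisely. Itpr1, the main IP3 receptor of neurons, had log2 changes of 0.45 at 2 weeks (SE 0.51), 0.16 at 5 weeks (SE 0.60) and 0.89 in the clone (SE 0.47) from the authors' deposited tables. The clone value was the nearest of the 3 to the threshold, with a deposited p of 0.0593 and an adjusted p of 0.193, and its interval ran from 0.976- to 3.52-fold. Itpr3, the receptor common in epithelia, had values of -0.53 at 2 weeks (SE 0.96), -0.50 at 5 weeks (SE 1.004) and -0.71 in the clone (SE 0.91) from the authors' deposited tables. These 3 values are below 0 with intervals that each reach at least 2-fold in either direction, so neither a rise nor a fall of that size was detectable. In the clone, the interval of Itpr2 (-3.52 to -2.64) overlapped neither that of Itpr1 (-0.03 to 1.82) nor that of Itpr3 (-2.48 to 1.07). At 5 weeks the interval of Itpr2 (1.40 to 2.20) lay above that of Itpr1, whose upper end was 1.33, and overlapped that of Itpr3, whose upper end was 1.47.

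Atp2c1 and the row named Atp2a2, both symbols of pumps that fill internal stores, had lower values in the clone. Atp2c1, which encodes the Golgi Ca2+ and manganese pump SPCA1, fell in the clone with a log2 change of -0.63 from the authors' deposited table (SE 0.16, adjusted p = 8.16e-04), a level of 0.648 of control with an interval of 0.521 to 0.805. Under UV it stood at -0.14 at 2 weeks (SE 0.14) and at -0.01 at 5 weeks (SE 0.18) from the authors' deposited tables, and neither value passed. The row named Atp2a2, the symbol of the SERCA2 pump of the endoplasmic reticulum, fell in the clone by 0.69 on the log2 scale from the authors' deposited table (SE 0.20, adjusted p = 0.00358). At 2 weeks it had -0.12 (SE 0.18) and at 5 weeks -0.02 (SE 0.22) from the authors' deposited tables. In each mouse table the Atp2a2 row has exactly the values of Tmed6, a gene of vesicle traffic, so the files do not show which of these genes was measured. Without it, 2 of 7 genes passed in the clone. No other of the 8 genes shared its values with another symbol.

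Atp2b1 and Atp2b4 encode the plasma membrane pumps PMCA1 and PMCA4, which expel Ca2+ from the cell. Atp2b4 had log2 changes of -0.28 at 2 weeks (SE 0.996), 1.19 at 5 weeks (SE 0.89) and 1.197 in the clone (SE 0.76) from the authors' deposited tables. The values at 5 weeks and in the clone amount to 2.28-fold and 2.29-fold, and their intervals (0.680 to 7.65 and 0.814 to 6.45) include no change. Atp2b1 had -0.25 at 2 weeks (SE 0.79), 0.57 at 5 weeks (SE 0.78) and 0.73 in the clone (SE 0.65) from the authors' deposited tables. Adjusted p-values of both genes ran from 0.317 for Atp2b4 in the clone to 0.965 for Atp2b1 at 5 weeks. Between 65.8% and 74.0% of the genes of a table had a smaller SE than these 2 pumps, so a 2-fold change of either was not detectable here.

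**Figure D2:**
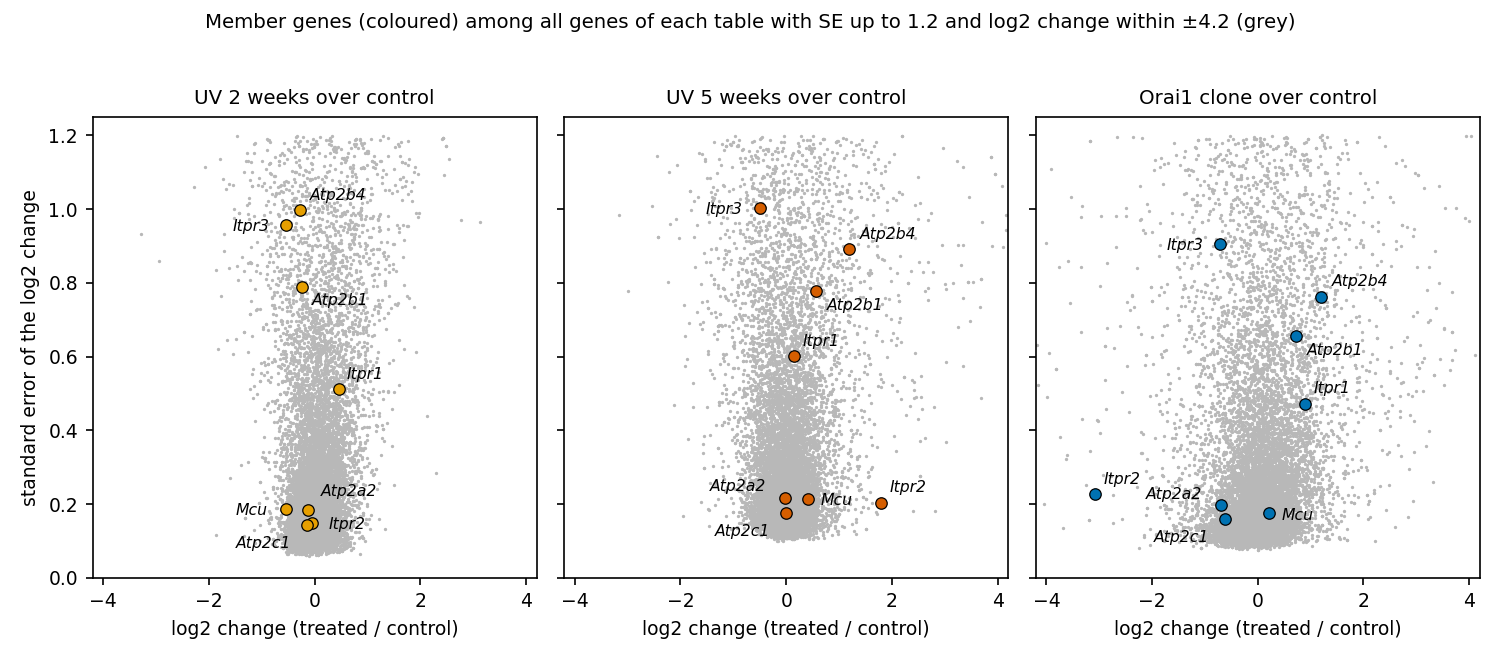
Log2 change (treated over control, horizontal axis) against its SE (vertical axis) for all genes of each B16N table within the drawn range (grey) and for the 8 measured genes (coloured). Itpr2, Atp2a2, Atp2c1 and Mcu have an SE of at most 0.23 in the 3 panels, while Itpr1, Itpr3, Atp2b1 and Atp2b4 lie between 0.47 and 1.004.

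Mcu encodes the pore of the mitochondrial Ca2+ uniporter. It fell after 2 weeks of UV with a log2 change of -0.55 from the authors' deposited table (SE 0.19, adjusted p = 0.0448), a level of 0.684 of control with an interval of 0.531 to 0.881. At 5 weeks it had a change of 0.42 from the authors' deposited table (SE 0.21, deposited p = 0.0522, adjusted p = 0.384), and in the clone 0.22 (SE 0.17, adjusted p = 0.475). The fall at 2 weeks lies close to the threshold: with the median change of precisely measured genes set to 0, its adjusted p was 0.0611. Over all settings tried, that p ran from 0.028 to 1, and 2 of 7 settings kept the call.

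Pairs of changes were then compared gene by gene with a normal test, and p-values were adjusted over the genes that both tables list. The control cancels in such a difference, and its spread is counted in both SEs. The SE of the difference is thus an upper value for these libraries. With 1 sample per group, spread between replicate cultures could not be measured, so this does not hold for conditions. Between 5 and 2 weeks of UV, 2 of 8 genes differed, where 3.33% of 14083 genes did; both were higher at 5 weeks, as were 2.05% of all genes, while 1.28% were lower. Itpr2 was higher at 5 weeks than at 2 weeks by 1.85 on the log2 scale (1.80 against -0.05 from the authors' deposited tables, SE 0.25, adjusted p = 1.99e-10), or 3.60-fold, and 16 genes had a smaller p. Mcu was higher at 5 weeks than at 2 weeks by 0.96 (0.42 against -0.55 from the authors' deposited tables, SE 0.28, adjusted p = 0.0262), or 1.95-fold with both values on opposite sides of the control. The other 6 differences did not pass, and their intervals ran from -0.46 to 0.65 for Atp2a2 and -0.31 to 0.58 for Atp2c1, and were wider for the rest.

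Between the clone and 2 weeks of UV, 2 of 8 genes differed, where 11.7% of 14105 genes did; 1 was higher in the clone and 1 lower, against 4.81% and 6.86% of all genes. Itpr2 was lower in the clone than at 2 weeks by a difference of -3.03 from the authors' deposited tables (SE 0.27, adjusted p = 2.16e-26). Mcu was higher in the clone than at 2 weeks by 0.77 (0.22 against -0.55 from the authors' deposited tables, SE 0.26, adjusted p = 0.0277). Both Mcu differences that passed rest on the same value at 2 weeks (-0.55), a fall whose call 2 of 7 settings kept, so they are not separate results. Between the clone and 5 weeks of UV, 1 of 8 genes differed and was lower in the clone, where 5.35% of 14291 genes differed, 1.27% higher and 4.08% lower. That gene was Itpr2, with a difference of -4.88 (-3.08 against 1.80 from the authors' deposited tables, SE 0.30, adjusted p = 8.96e-54), so its level at 5 weeks was 29.4 times that in the clone. Only 1 of the 14291 genes had a smaller p.

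Atp2c1 and Atp2a2 passed in the clone alone, but this was not shown to set the clone apart from UV. Atp2c1 was lower in the clone than at 5 weeks by a difference of -0.62 from the authors' deposited tables (SE 0.24, p = 0.0091, adjusted p = 0.125), and than at 2 weeks by -0.48 (adjusted p = 0.148). For the Atp2a2 row the differences were -0.67 against 5 weeks (adjusted p = 0.244) and -0.57 against 2 weeks (adjusted p = 0.187) from the authors' deposited tables. With a part of each squared SE taken as the common control and removed, these 4 differences passed. Atp2c1 then had an adjusted p of 0.00669 against 5 weeks and 0.0157 against 2 weeks, and Atp2a2 had 0.0244 against 5 weeks and 0.0220 against 2 weeks. Atp2b4 had a difference between the clone and 5 weeks of 0.01 with an interval of -2.29 to 2.31 from the authors' deposited tables, which leaves room for a large difference in either direction.

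**Figure D3:**
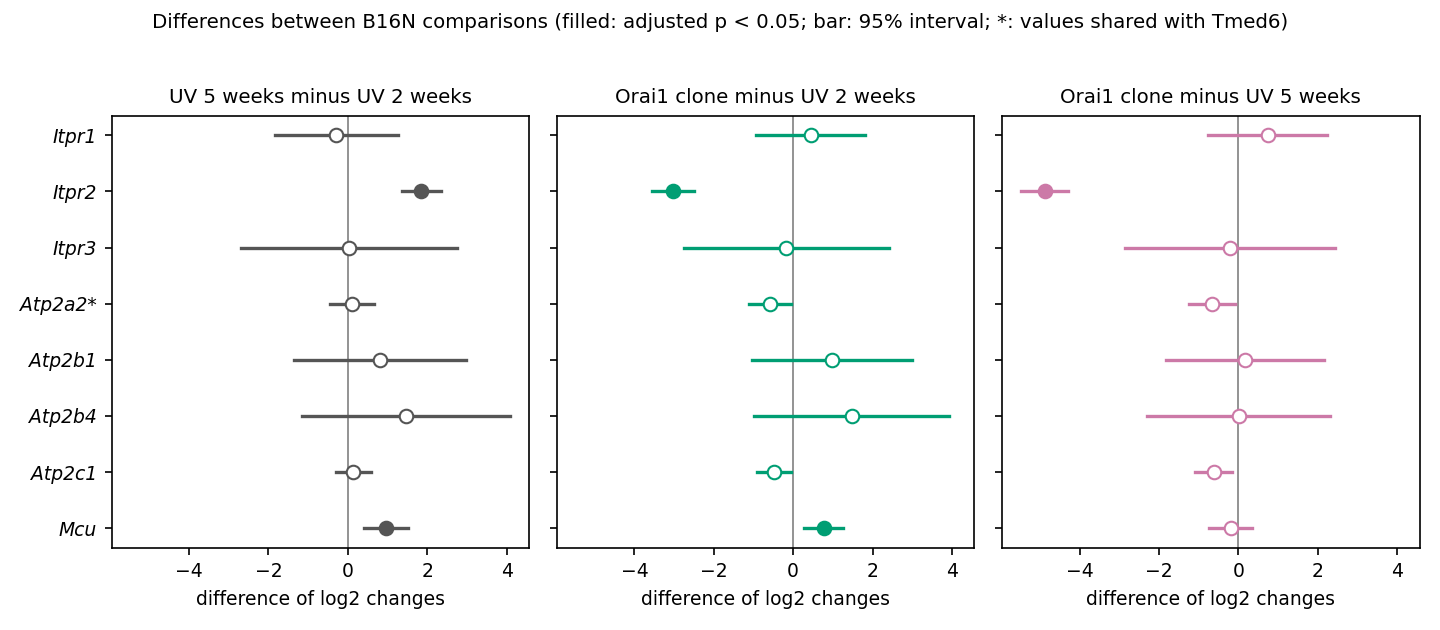
Difference of the log2 changes (horizontal axis) of the 8 measured genes between 5 and 2 weeks of UV, between the Orai1 clone and 2 weeks, and between the clone and 5 weeks. Bars are 95% normal intervals and filled points have an adjusted p under 0.05; Itpr2 is filled in each panel (1.85, -3.03 and -4.88) and Mcu in those that involve 2 weeks (0.96 and 0.77).

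The 5 genes nearest to Itpr2 were found by the Euclidean distance of the 3 log2 changes, among 7168 genes with values of their own and an SE of at most 0.5 in each table. The 3 comparisons share their control sample. The nearest genes were chosen on these same changes, so their likeness to Itpr2 is no separate result. Trib3, a pseudokinase gene of the integrated stress response, was the nearest at a distance of 1.302, with changes of -0.66, 2.41 and -2.11 at 2 weeks, 5 weeks and in the clone from the authors' deposited tables. The fall of Trib3 at 2 weeks (SE 0.14) passed the test, while the change of Itpr2 at that time (-0.05) did not. Sparcl1, which encodes a secreted matrix protein, followed at 1.52, with -0.10, 1.42 and -1.61 from the authors' deposited tables. Adam23, Trnp1 and the chemokine gene Ccl5 stood at distances of 1.55 to 1.67, and their changes at 5 weeks (0.59, 0.46 and 0.24 from the authors' deposited tables) did not pass. Of the 7168 genes, 32 rose at 5 weeks and fell in the clone, and 6 of these changed at least 2-fold both ways: Itpr2, Trib3, Sparcl1, Atf5, Bcat1 and Herpud1, the last 3 named after their values were seen.

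**Figure D4:**
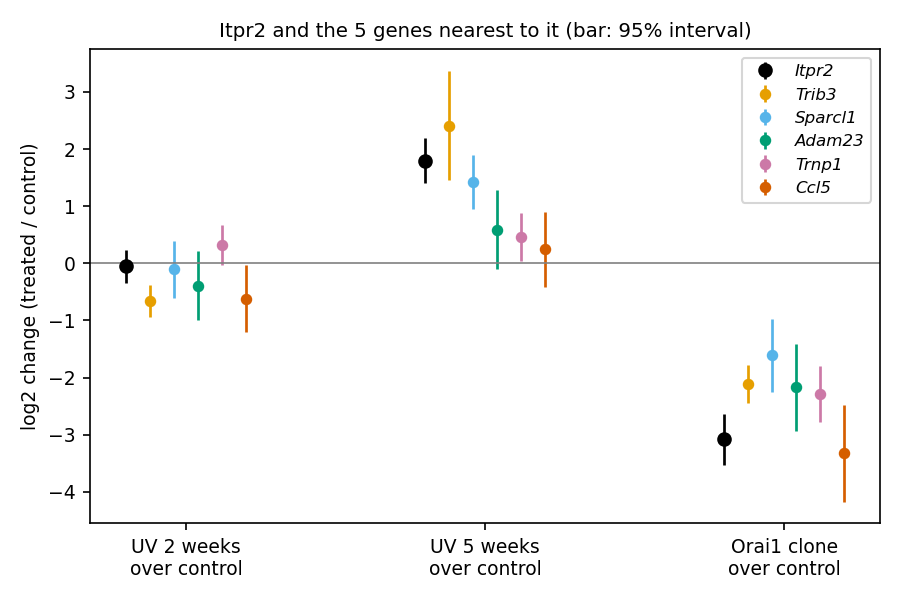
Log2 change (treated over control, vertical axis) of Itpr2 and of the 5 genes nearest to it in the 3 B16N comparisons; bars are 95% normal intervals. Itpr2, Trib3 and Sparcl1 lie above 0 at 5 weeks (1.80, 2.41 and 1.42) and below 0 in the clone (-3.08, -2.11 and -1.61).

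Other genes of the same pathways were read from 5 lists of 96 symbols, of which 82 had a row in a mouse table. Symbols that shared their values with another were left out of the counts. At 2 weeks 3 of 52 rose and 5 fell, where 3.71% of the 10415 genes with values of their own rose and 5.28% fell (3.13% and 4.55% of all genes). At 5 weeks 5 of 53 rose and 1 fell, where 3.53% of 10482 such genes rose and 1.98% fell (3.07% and 1.71% of all genes). In the clone 4 of 54 rose and 9 fell, where 12% of 10659 such genes rose and 13.9% fell (10.3% and 11.6% of all genes). Of the list symbols left out, 1 of 27 passed as higher at 2 weeks, 1 of 26 as higher and 1 as lower at 5 weeks, and 4 of 25 as higher and 1 as lower in the clone. Medians over the counted list genes were -0.02 at 2 weeks, 0.08 at 5 weeks and -0.11 in the clone, against 0.02, 0.01 and 0.03 over all genes with values of their own.

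IP3 production held phospholipase C and G protein genes and kinases and phosphatases of IP3. At 2 weeks 0 of 11 passed, at 5 weeks 1 of 11 rose and in the clone 1 of 12 rose, with list medians of -0.20, 0.05 and -0.19. The riser was Plch1, a phospholipase C gene of the eta class, with log2 changes of 2.16 at 5 weeks (SE 0.49, adjusted p = 5.96e-04) and 1.504 in the clone (SE 0.39, adjusted p = 8.63e-04) from the authors' deposited tables. At 2 weeks Plch1 stood at -0.32 (SE 0.54) from the authors' deposited table, and its change at 5 weeks was higher than that by 2.48 (adjusted p = 0.0245).

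Of store release channels and their regulators, 1 of 11 rose and 2 fell at 2 weeks, 1 of 12 rose at 5 weeks, and 1 of 11 rose and 2 fell in the clone, with list medians of 0.13, 0.09 and -0.16. Ero1a, an oxidase of the endoplasmic reticulum that acts on IP3 receptors, rose at 2 weeks (0.56, SE 0.09) and at 5 weeks (0.99, SE 0.13) and fell in the clone (-0.91, SE 0.10) from the authors' deposited tables. Its change in the clone was lower than that at 5 weeks by a difference of -1.89 (SE 0.16), which passed the test of the difference. Ahcyl1, which encodes the IP3 receptor inhibitor IRBIT, fell at 2 weeks (-0.39, SE 0.08) and in the clone (-0.32, SE 0.10) from the authors' deposited tables. Tpcn1, a channel gene of endosomes and lysosomes, fell at 2 weeks (-0.38, SE 0.12, adjusted p = 0.0237) from the authors' deposited table.

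Of other pumps and exchangers, 2 had values of their own in each table. Nptn, which encodes the PMCA partner neuroplastin, fell at 5 weeks (-0.53, SE 0.17, adjusted p = 0.0462) from the authors' deposited table, and no other call was made among these 2 genes. The row of Bsg, another PMCA partner, shares its values with 1 other symbol and was not counted; it had 0.61 at 2 weeks (SE 0.11, adjusted p = 2.54e-06), 0.51 at 5 weeks (SE 0.19, adjusted p = 0.120) and 0.52 in the clone (SE 0.12, adjusted p = 1.92e-04) from the authors' deposited tables. The list median was 0.10 at 2 weeks, -0.39 at 5 weeks and -0.07 in the clone.

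Mitochondrial uptake, release and contact genes had 3 of 21 lower at 2 weeks, 2 of 21 higher at 5 weeks, and 2 of 22 higher with 4 lower in the clone, with list medians of -0.12, 0.19 and -0.06. Hspa9, the mitochondrial chaperone that links IP3 receptors to the outer membrane channel VDAC1, fell at 2 weeks (-0.26, SE 0.07) and in the clone (-0.33, SE 0.08) and rose at 5 weeks (0.45, SE 0.12) from the authors' deposited tables. Its change at 5 weeks was higher than that at 2 weeks by 0.72 (SE 0.14), which passed the test of the difference, the direction that Mcu also took between these times. Pdzd8, a tether of membrane contact sites, fell at 2 weeks (-0.40, SE 0.09) and in the clone (-0.38, SE 0.11) from the authors' deposited tables. In the clone Fundc1, a mitophagy receptor gene of the outer membrane, fell (-0.74, SE 0.13), and Vdac2 (0.72, SE 0.14) and Letm2 (1.07, SE 0.28) rose from the authors' deposited table. Letm2 had a similar value at 5 weeks (1.03, SE 0.35), which did not pass. Its difference between the clone and 5 weeks was 0.04 (SE 0.45) and did not pass, so its rise was not shown to set the clone apart.

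The partners of Mcu in the uniporter complex were named after their values were seen. Mcur1, a regulator of the uniporter, fell beside Mcu at 2 weeks (-0.41, SE 0.13, adjusted p = 0.0278) from the authors' deposited table. Micu3, a gatekeeper gene, fell in the clone (-1.48, SE 0.54, adjusted p = 0.0317) from the authors' deposited table. Smdt1, which encodes the subunit EMRE, had 0.19 at 2 weeks, 0.19 at 5 weeks and 0.07 in the clone from the authors' deposited tables, with adjusted p-values of 0.314, 0.661 and 0.881.

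Ca2+ buffers and chaperones of the stores had 2 of 7 higher at 2 weeks, 1 of 7 higher at 5 weeks and 3 of 7 lower in the clone, with list medians of 0.32, 0.08 and 0.05. Hspa5, the chaperone BiP, rose at 2 weeks (0.43, SE 0.07) and fell in the clone (-0.24, SE 0.09) from the authors' deposited tables. Pdia3, a disulphide isomerase gene, rose at 2 weeks (0.39, SE 0.08), and Hsp90b1, the chaperone GRP94, rose at 5 weeks (0.76, SE 0.13) from the authors' deposited tables. The EF-hand protein genes Rcn1 (-0.65, SE 0.10) and Calu (-0.44, SE 0.13) fell in the clone from the authors' deposited table. Rcn1 and Calu were lower in the clone than at 2 weeks by differences of -0.56 and -0.79 that passed the test, and neither difference from 5 weeks passed.

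**Figure D5:**
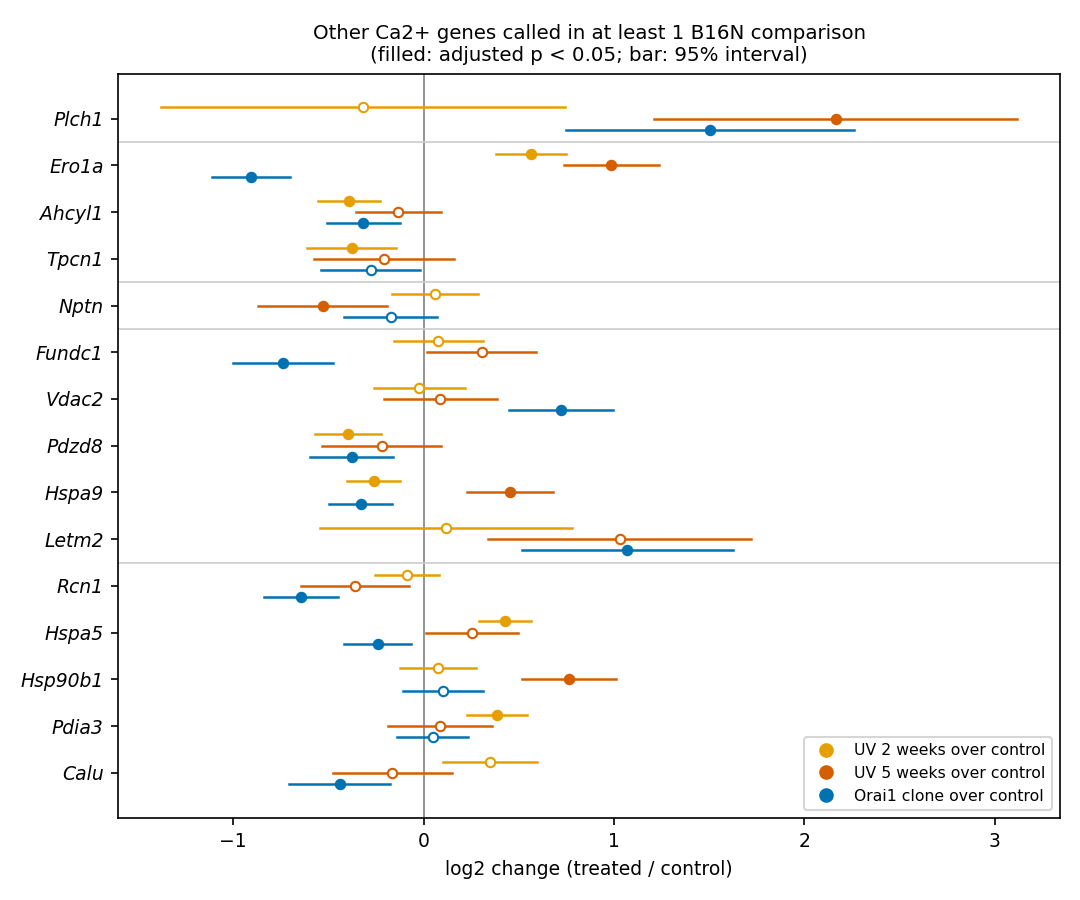
Log2 change (treated over control, horizontal axis) in the 3 B16N comparisons of the other Ca2+ genes called in at least 1 of them and named here, up to 5 per list, with lists separated by grey lines. Bars are 95% normal intervals and filled points have an adjusted p under 0.05. Ero1a lies above 0 under UV (0.56 and 0.99) and below 0 in the clone (-0.91).

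In the human tables, which hold 420 rows each, 2 genes of the 5 lists had a row, BSG and PLCG2. The direction of the human log2 values could not be checked and is given as deposited. BSG, a partner of the PMCA pumps, had -1.03 in WM983 (deposited p = 5.0e-05) and 0.04 in UACC257 (deposited p = 0.784) from the authors' deposited tables. PLCG2, a phospholipase C gene of the gamma class, had 1.66 in WM983 (deposited p = 5.0e-05) and -0.26 in UACC257 (deposited p = 0.169) from the authors' deposited tables. The WM983 rows are mostly of low p (418 of 420 under 0.05) and the UACC257 rows are not (42 of 420), so the tables are selections and no share of changed genes is given.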

How the data were processed

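RNA-seq comparisons came as 5 tables made by the authors, 3 of them for B16N and 2 for human lines, whose columns are symbol, log2 fold change, test statistic (called score here) and p-value per the file headers. The submitters' processing notes name the build GRCm38; aligner, counting and test are not given in the sources used here. Mouse signs were turned, since each of 1357 genes listed in only 1 of the mouse tables had a negative deposited log2 value. For the mouse comparisons, each deposited p-value matches a two-sided normal p for its score within 5.0e-08, so the SE is log2 change over score. This match was not checked for the human lines, for which no SE was computed. Rows without a symbol or p were left out (1, 1 and 4), leaving 14648, 14821 and 15041 genes. About 29% of symbols share all values with another one.

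Intervals are the change ± 1.96 SE. Benjamini-Hochberg adjustment used Python 3.11.15, numpy 2.4.6, pandas 2.3.3 and scipy 1.17.1, and the procedure was tested on simulated data. Members, lists and tests were chosen with earlier results of these data known. The named genes were the members, up to 5 genes per list called in any comparison by smallest adjusted p, and the 5 genes nearest to Itpr2. A few list genes are counted but not reported here by name. Alternatives were fold minimums, stricter thresholds, Bonferroni adjustment, shared values counted once, an SE of at most 0.5, a median set to 0 and a smaller SE of differences.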

Additional observations from a re-analysis of the deposited data

Results flagged for a closer look

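Between the B16N libraries labelled 5 and 2 weeks of UV, the log2 change over control differed by the normal test for 2 of the 8 measured genes, where 3.33% of all genes differed. For Itpr2 the log2 change at 5 weeks was higher than that at 2 weeks by 1.85 (SE 0.25) from the authors' deposited tables. For Mcu the log2 change at 5 weeks was higher than that at 2 weeks by 0.96 (SE 0.28) from the authors' deposited tables. With 1 library per time, neither difference has a replicate check.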

How the results depend on the processing

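The calls of Itpr2 at 5 weeks and in the clone, and its 3 differences between comparisons, held under every setting tried. Members called at 2 weeks, 1 in the main setting, were 0 with at least 1.5-fold, at least 2-fold, an adjusted p under 0.01, Bonferroni adjustment and the median set to 0. Members called in the clone, 3 in the main setting, were 1 with at least 2-fold or Bonferroni, and 2 without Atp2a2, a setting added after the data were seen. Members that differed between times or between the clone and 2 weeks, 2 each, were 1 with an adjusted p under 0.01 or Bonferroni. With common control removed from the SE, 4 members differed between the clone and 2 weeks, and 3 between the clone and 5 weeks. Atp2c1 at 5 weeks changed sign to 0.0044 with the median set to 0. Calls among other Ca2+ genes at 2 weeks, 8 in the main setting, were 0 with either fold minimum and 4 with Bonferroni. At 5 weeks, 6 became 3 with at least 1.5-fold, 1 with at least 2-fold and 2 with Bonferroni. In the clone, 13 became 8 with at least 1.5-fold, 3 with at least 2-fold and 5 with Bonferroni.

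Of all genes, 1124 passed at 2 weeks (40.7% higher), 269 with at least 1.5-fold (63.9% higher), 51 with at least 2-fold (64.7% higher), 735 with an adjusted p under 0.01 and 296 with Bonferroni. At 5 weeks 708 passed (64.3% higher), 269 with at least 2-fold (82.5% higher), 430 under 0.01 and 179 with Bonferroni (76.5% higher). In the clone 3305 passed, 2049 with at least 1.5-fold, 1021 with at least 2-fold and 1142 with Bonferroni. Genes that differed numbered 469 between times, 1646 between the clone and 2 weeks and 764 between the clone and 5 weeks. With common control removed these were 1096, 2864 and 1448, with Bonferroni 104, 485 and 228, and between times and between the clone and 5 weeks 257 and 494 under 0.01. No paired analysis was possible because each group holds 1 sample and the tables hold no sample values, which also leaves no replicate to leave out. Depth is unknown, and the SE sets the limit: Itpr1, Itpr3, Atp2b1 and Atp2b4 are open to changes of 2-fold in at least 1 direction in each comparison.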
